A study of Mus musculus with 6 samples.

Results

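The genes described here were 10 transcripts grouped as neutrophil and calprotectin genes, taken by symbol from a table of 27546 genes. They were S100a8 and S100a9, Lcn2, Retnlg, Ly6g, Csf3r, Trem1, Trem3, Clec4d and Clec4e, and all 10 were in the table. The name neutrophil genes is used below as a label, and the cells that made these transcripts were not determined. Distal colon of 3 Gm31629-/- mice and 3 WT littermates was sequenced, each with its own RNA-Seq library. Mice of both genotypes were C57BL/6 by the labels (C57BL/6J in the methods), 8 weeks old, drank 3% DSS (dextran sulfate sodium, which injures the colonic epithelium) for 7 days and were sacrificed on day 8. Gm31629 is a long noncoding RNA on chromosome 1, its deletion was present in the whole animal, and its own level was not analysed here. No mice without DSS were in the set, so each difference below is between genotypes under injury. The methods speak of RNA pooled from 3 and 3 mice, whereas the table holds a column per mouse, and the columns were treated as separate mice.

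Neutrophils leave the blood within hours of tissue injury and carry preformed antimicrobial proteins. S100A8 and S100A9 pair as calprotectin, which fills the neutrophil cytosol and withholds zinc and manganese from microbes, and its release into stool is used to follow intestinal inflammation. Lipocalin 2, encoded by Lcn2, binds the siderophores with which bacteria take up iron and is also made by inflamed epithelium. LY6G is an anchored surface protein whose antibody identifies mouse neutrophils, CSF3R receives the granulocyte growth factor G-CSF, TREM1 and TREM3 signal through the adaptor TYROBP, and CLEC4D and CLEC4E are C-type lectin receptors for microbial glycolipids that signal through the Fc receptor gamma chain.

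The genes lie on 7 chromosomes in GRCm38, and 3 pairs are close together. S100a8 (chr3:90668978-90670035, plus strand) and S100a9 (chr3:90692632-90695721, minus strand) stand in the S100 cluster, Trem1 (chr17:48232768-48246924) and Trem3 (chr17:48247777-48258841) adjoin on the plus strand, and Clec4d (chr6:123262111-123275265, plus strand) and Clec4e (chr6:123281789-123289870, minus strand) point toward each other. Lcn2 (chr2:32384633-32388252, minus strand), Csf3r (chr4:126024550-126044440), Ly6g (chr15:75155240-75159126) and Retnlg (chr16:48872621-48874496) stand alone. None shared exon bases with another annotated gene. Windows of 50 exonic bases that also occur in another gene made up 0.448% of Ly6g, 10.7% of Csf3r and 0% of the other 8 genes.

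RefSeq promoter sequences (GRCm38.p6) were matched for 9 of the 10 genes, all except Trem3. The 250 bases before the start are shown for 6 genes, because these genes fell into different patterns among the Gm31629-/- mice (below). Capitals mark the C/EBP motif TTGCNNAA and the PU.1 motif GAGGAAG, read on both strands. Ly6g has 2 listed starts, and the window of the upstream one is shown. The RefSeq starts used here differ from the GENCODE M21 gene spans given above, so that 250 of the 250 bases shown for Lcn2, 93 for S100a8, 109 for Csf3r and 21 for Ly6g lie inside the span, and 0 for S100a9 and Retnlg.
S100a8 (chr3:90668821-90669070, plus strand): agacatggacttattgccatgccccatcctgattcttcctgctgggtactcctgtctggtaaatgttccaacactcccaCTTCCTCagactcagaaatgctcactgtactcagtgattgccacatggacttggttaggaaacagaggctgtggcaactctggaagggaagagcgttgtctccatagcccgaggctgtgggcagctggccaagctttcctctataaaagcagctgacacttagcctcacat
S100a9 (chr3:90695722-90695971, minus strand): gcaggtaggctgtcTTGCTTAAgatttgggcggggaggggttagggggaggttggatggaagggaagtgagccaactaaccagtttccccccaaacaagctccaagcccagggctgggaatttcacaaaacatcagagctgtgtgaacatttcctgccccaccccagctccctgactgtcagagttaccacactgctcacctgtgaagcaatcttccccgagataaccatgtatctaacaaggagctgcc
Lcn2 (chr2:32387740-32387989, minus strand): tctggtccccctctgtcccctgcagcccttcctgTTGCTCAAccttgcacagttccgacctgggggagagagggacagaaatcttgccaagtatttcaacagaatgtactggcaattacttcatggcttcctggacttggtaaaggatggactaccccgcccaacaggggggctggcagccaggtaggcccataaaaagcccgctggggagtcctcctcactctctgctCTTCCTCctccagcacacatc
Retnlg (chr16:48872358-48872607, plus strand): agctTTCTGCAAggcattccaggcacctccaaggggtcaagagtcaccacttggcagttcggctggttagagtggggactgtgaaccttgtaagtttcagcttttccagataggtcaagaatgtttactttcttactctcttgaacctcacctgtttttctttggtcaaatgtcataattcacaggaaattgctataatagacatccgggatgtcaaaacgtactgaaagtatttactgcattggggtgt
Csf3r (chr4:126024409-126024658, plus strand): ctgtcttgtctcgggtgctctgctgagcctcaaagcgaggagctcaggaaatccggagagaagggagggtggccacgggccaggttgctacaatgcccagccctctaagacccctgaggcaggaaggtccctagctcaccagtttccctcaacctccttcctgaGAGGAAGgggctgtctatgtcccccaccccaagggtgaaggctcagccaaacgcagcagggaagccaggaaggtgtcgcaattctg
Ly6g (chr15:75155011-75155260, plus strand): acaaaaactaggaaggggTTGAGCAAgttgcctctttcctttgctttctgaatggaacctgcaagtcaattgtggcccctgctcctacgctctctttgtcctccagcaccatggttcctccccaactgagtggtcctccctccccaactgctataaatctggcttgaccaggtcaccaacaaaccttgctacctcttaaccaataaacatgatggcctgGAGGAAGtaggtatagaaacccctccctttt
The C/EBP motif was in the window of 5 of 9 genes, S100a9, Lcn2, Retnlg, Ly6g and Clec4e, against 9.56% of all 32851 promoters. The PU.1 motif was in the window of 5 of 9, S100a8, Lcn2, Csf3r, Ly6g and Clec4d, against 10.6%. Lcn2 and Ly6g held both. In Lcn2 the C/EBP match spanned bases 216 to 209 before the start and the PU.1 match bases 21 to 15, and in Ly6g they spanned bases 232 to 225 and 31 to 25. A TATA box, TATAAA, was in 3 of 9 windows, S100a8, Ly6g and Clec4e, against 12.4%, the STAT motif TTCNNNGAA was in 1, Trem1, against 7.02%, and an NF-kB motif was in 0, against 0.356%. These motifs overlap in no gene shown, other spellings had been tried first, and a match describes letters only.

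By FPKM (fragments scaled by gene length and by library depth), a level that can be compared between genes, 9 of the 10 genes were called higher in Gm31629-/- colon. A call required a log2 fold change above 1 together with an adjusted p under 0.05. Among all 14657 genes tested, 18.4% were called higher and 4.64% lower. In 10 of 10 genes every Gm31629-/- mouse lay above every WT mouse, which was so for 36.3% of tested genes. The median log2 fold change of the 10 was 2.67, against 0.15 over all tested genes. All 10 had passed the filter on low levels, a mean of at least 0.5 FPKM over the 6 libraries, but Trem1, Trem3, Clec4d and Clec4e had WT means under that minimum and passed through the Gm31629-/- mice.

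Before the single genes, 1 library must be set apart. Gm31629-/- mouse 1 had Y-linked transcripts (Ddx3y 9.27, Eif2s3y 15.4, Kdm5d 2.49 and Uty 2.03 FPKM) and Xist at 0.00606 FPKM, whereas the other 5 libraries had those 4 genes at 0 and Xist at 8.35 to 13.8 FPKM. The labels give no sex, and the methods say that males were used. Without this mouse all 10 genes were called higher, where 18.7% of the 14361 genes tested were, and their log2 fold changes ran from 1.11 for Trem3 to 3.76 for S100a9. S100a8 was then at 3.55, Lcn2 at 2.71, Retnlg at 2.83, Ly6g at 3.11 and Csf3r at 2.66. Estimated depth was 18006000 to 18795100 mapped fragments per library, and values above 0 were listed for 22456 to 23600 genes in Gm31629-/- and 19938 to 20118 in WT mice.

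**Figure D1:**
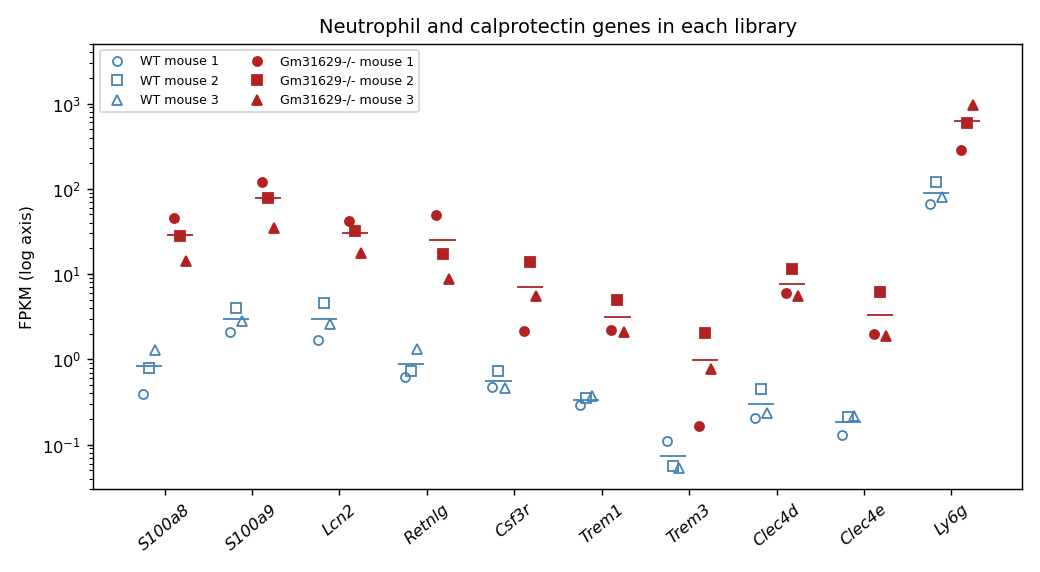
FPKM of the 10 genes in each library on a log axis, with WT mice as open blue and Gm31629-/- mice as filled red symbols (shape gives the mouse) and a line at each group mean. No gene's groups overlap, Ly6g stands far above the other genes in WT mice, and Trem3 is lowest in all 6 libraries.

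S100a8 measured 45.3, 27.7 and 14.3 FPKM in Gm31629-/- mice 1 to 3 and 0.389, 0.8 and 1.3 FPKM in WT mice 1 to 3. Every Gm31629-/- mouse was thus above every WT mouse, the lowest by 11 times the highest WT value. The means were 29.1 ± 15.6 and 0.831 ± 0.458 FPKM (SD, n = 3 each), a 35-fold ratio, with a log2 fold change of 3.93 (SE 0.402, adjusted p = 0.000632). The WT values rested on 5, 10 and 17 fragments and those of Gm31629-/- mice on 579, 355 and 182, so counting error was largest in WT.

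S100a9, the partner of S100a8, was at 120.0, 77.2 and 35 FPKM in Gm31629-/- mice 1 to 3 and at 2.07, 4.04 and 2.85 FPKM in WT mice 1 to 3. The groups did not overlap, and mouse 1 was again highest and mouse 3 lowest in Gm31629-/-. The difference was 4.16 on the log2 scale (SE 0.428, adjusted p = 0.000641). By the ratio of mean FPKM it was smaller than S100a8, 25.9-fold. S100a9 exceeded S100a8 in all 6 libraries. Its ratio to S100a8 was 2.64, 2.79 and 2.45 in Gm31629-/- mice, and 5.32, 5.05 and 2.19 in WT mice, where the few S100a8 fragments limit it. The ratios overlapped between genotypes (exact permutation test, two-sided p = 0.4, adjusted p = 0.48 over 6 ratios).

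Lcn2 measured 41.6, 31.7 and 17.7 FPKM in Gm31629-/- mice 1 to 3 and 1.67, 4.59 and 2.6 FPKM in WT mice 1 to 3. The groups were separate, with the same order of Gm31629-/- mice as the calprotectin pair, although its fold was smaller. The means of 30.4 ± 12 and 2.95 ± 1.5 FPKM (SD, n = 3 each) gave a 10.3-fold ratio and a log2 fold change of 2.98 (SE 0.37, adjusted p = 0.00127). Lcn2 per unit of S100a9 was 0.347, 0.411 and 0.506 in Gm31629-/- mice and 0.806, 1.14 and 0.91 in WT mice, where S100a9 rested on 20, 38 and 28 fragments. These ratios did not overlap, but with 3 mice a group the two-sided exact permutation test could not go below p = 0.1, the value it gave (adjusted p = 0.3 over 6 ratios).

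Retnlg encodes resistin-like gamma, a secreted protein of mouse granulocytes. It was at 49.9, 17.1 and 8.77 FPKM in Gm31629-/- mice 1 to 3 and at 0.622, 0.731 and 1.31 FPKM in WT mice 1 to 3. Mouse 1 carried the most, and the lowest Gm31629-/- mouse was still 6.68 times the highest WT mouse. The log2 fold change was 3.48 (SE 0.547, adjusted p = 0.00296), with an adjusted p of 0.000971 without Gm31629-/- mouse 1.

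Ly6g behaved differently from the 4 secreted proteins in level and in order. It measured 288.0, 596.0 and 965.0 FPKM in Gm31629-/- mice 1 to 3 and 66.7, 121.0 and 80.8 FPKM in WT mice 1 to 3. The groups did not overlap, but here mouse 3 was highest and mouse 1 lowest in Gm31629-/-. The means were 616 ± 339 and 89.7 ± 28.4 FPKM (SD, n = 3 each), a 6.87-fold ratio, and the log2 fold change was 2.65 (SE 0.44, adjusted p = 0.00364). Ly6g was the highest of the 10 genes in all 6 libraries. In WT colon it stood at percentiles 94.2 to 97.1 of the tested genes, where the other 9 genes together summed to 5.96 to 12 FPKM. Its WT values rested on 1163 to 2060 fragments.

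Ly6g per unit of S100a9 was 32.2, 30 and 28.3 in WT mice, nearly constant, and 2.4, 7.72 and 27.5 in Gm31629-/- mice. All Gm31629-/- ratios were below the WT ratios, mouse 3 only just, and the two-sided exact permutation test gave p = 0.1, the smallest it can give (adjusted p = 0.3). Ly6g per unit of Csf3r overlapped between genotypes, at 133.0, 43.2 and 177.0 in Gm31629-/- mice and 139.0, 168.0 and 177.0 in WT mice.

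Csf3r, the receptor by which granulocytes and their precursors respond to G-CSF, was at 2.17, 13.8 and 5.46 FPKM in Gm31629-/- mice 1 to 3 and 0.479, 0.723 and 0.457 FPKM in WT mice 1 to 3. Mouse 2 was highest and mouse 1 lowest, and the groups did not overlap. The log2 fold change was 2.12 (SE 0.502, adjusted p = 0.0139), and this was the 1 call of the 9 that ended when a mouse was left out (without WT mouse 3, adjusted p = 0.0536). Its ligand Csf3 was at 4.62, 17.6 and 7.36 FPKM in Gm31629-/- mice and 0.23, 0.354 and 0.226 FPKM in WT mice, with the same order of mice as Csf3r (log2 fold change 2.91, SE 0.405, adjusted p = 0.00185).

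Trem1, which amplifies inflammatory signals of myeloid cells, was at 2.23, 4.96 and 2.11 FPKM in Gm31629-/- mice 1 to 3 and 0.289, 0.352 and 0.373 FPKM in WT mice 1 to 3. The groups were separate, and mouse 2 was highest. The ratio of mean FPKM was 9.17-fold, and the log2 fold change was 1.55 (SE 0.266, adjusted p = 0.00416), or 2.76 with a pseudocount of 0.1 in place of 1. Trem3, its neighbour, was far lower, at 0.164, 2.02 and 0.767 FPKM in Gm31629-/- mice and 0.109, 0.0559 and 0.0535 FPKM in WT mice. These were 3, 37 and 14 fragments against 2, 1 and 1, so Gm31629-/- mouse 1 was above WT mouse 1 by a single fragment. Trem3 did not pass the test (log2 fold change 0.78, SE 0.325, adjusted p = 0.0904). The pooled 54 and 4 fragments gave a ratio of 13.5 with an exact 95% interval of 4.99 to 51.4, which covers counting error only. Without Gm31629-/- mouse 1, Trem3 was called higher (1.11 on the log2 scale, adjusted p = 0.0129).

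Clec4d measured 5.95, 11.5 and 5.55 FPKM in Gm31629-/- mice 1 to 3 and 0.203, 0.452 and 0.233 FPKM in WT mice 1 to 3. Mouse 2 was highest, mice 1 and 3 were close together, and the groups did not overlap. The log2 fold change was 2.68 (SE 0.27, adjusted p = 0.000601), the smallest adjusted p among the 10 genes. Clec4e, the lectin that CLEC4D accompanies at the cell surface, was at 1.97, 6.24 and 1.86 FPKM in Gm31629-/- mice and 0.131, 0.213 and 0.214 FPKM in WT mice. The groups were again separate with mouse 2 highest, the ratio of mean FPKM was 18.1-fold, and the log2 fold change was 1.74 (SE 0.355, adjusted p = 0.00797), or 3.38 with a pseudocount of 0.1. The ratio of Clec4d to Clec4e was 3.02, 1.85 and 2.98 in Gm31629-/- mice and 1.55, 2.12 and 1.09 in WT mice and overlapped (exact permutation test, two-sided p = 0.2, adjusted p = 0.4).

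The 3 Gm31629-/- mice thus ranked in different orders by different neutrophil genes. The 4 genes of secreted or cytosolic proteins, S100a8, S100a9, Lcn2 and Retnlg, were highest in mouse 1 and lowest in mouse 3. The 5 receptor genes Csf3r, Trem1, Trem3, Clec4d and Clec4e were highest in mouse 2. Ly6g alone was highest in mouse 3. Of the 2704 genes called higher, 26.96% were highest in mouse 1, 63.61% in mouse 2 and 9.43% in mouse 3. These orders were seen after the fact and the difference between gene groups was not tested.

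**Figure D2:**
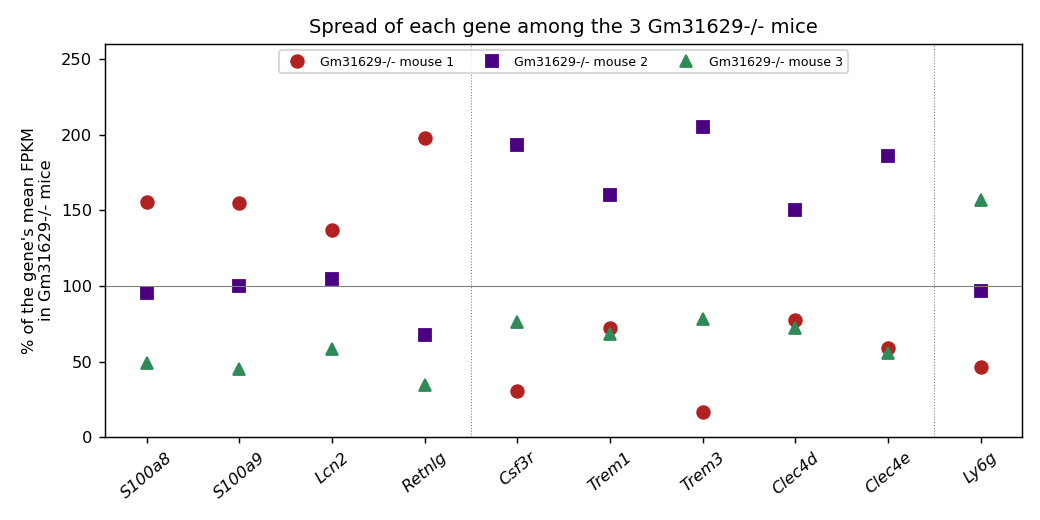
Level of each gene in the 3 Gm31629-/- mice as a percentage of its own mean FPKM in that group, with dotted lines between the secreted or cytosolic proteins, the receptors and Ly6g. Mouse 1 (circle) is highest for the first 4 genes, mouse 2 (square) for the 5 receptors and mouse 3 (triangle) for Ly6g.

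The spread among Gm31629-/- mice was wide. The coefficient of variation of FPKM ran from 39.6% for Lcn2 to 96.2% for Trem3, with a median of 54.9%, against a median of 24.7% over all tested genes and 39.2% over genes called higher. In WT mice the median over the 10 genes was 37.5%, against 16.9% over all tested genes and 30.65% over genes called higher. In 7 of 10 genes the coefficient was larger in Gm31629-/-, as were the medians over all tested genes and over genes called higher.

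The levels were ordered alike in both genotypes at the ends only. Ly6g was first and Trem3 last in every library. S100a9 took place 2 in 5 of 6 libraries and place 3 in WT mouse 2, where Lcn2 at 4.59 FPKM passed S100a9 at 4.04 FPKM. S100a8 took place 4 in each Gm31629-/- mouse and places 4 to 6 in WT mice, where its range overlapped those of Retnlg and Csf3r. In Gm31629-/- mice 1 to 3, S100a9 was at percentiles 97.3, 95.4 and 89.3 and S100a8 at 92.0, 86.0 and 76.0 of the tested genes, and in WT mice they were at percentiles 38.2 to 51.7 and 13.8 to 30.0.

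Likeness of pattern was measured as the root mean square difference of centred log2(FPKM + 1) over the 6 libraries, where 0 is an identical pattern. S100a8 was closest to Fmo2 (0.221), Hp (0.222) and Calb2 (0.239), and S100a9 to S100a8 (0.252), Sncg (0.252) and Calb2 (0.283). Retnlg was closest to Apod (0.249), Fmo2 (0.304) and Arl4d (0.308), and Lcn2 to Cldn5 (0.234), Marveld1 (0.273) and Slc22a17 (0.273). For S100a8, S100a9 stood in place 4, Retnlg in place 16, Lcn2 in place 89 and Clec4d in place 288 among all tested genes. Farther off were Ly6g in place 999, Clec4e in place 1237, Trem1 in place 1397, Csf3r in place 1417 and Trem3 in place 4412.

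The genes nearest to Ly6g were Podxl (0.203), Pitx1 (0.232) and Susd2 (0.259), and none of the other 9 genes was nearer to it than Clec4d in place 357. Csf3r was closest to Slc15a3 (0.039), Spry4 (0.145) and Procr (0.168), Trem1 to Hdc (0.0433), Prkar2b (0.0464) and Ptger2 (0.055), and Trem3 to Epgn (0.0626), Pvr (0.065) and Ptpn1 (0.0668). Clec4d was closest to Dennd5a (0.0747), Plod2 (0.0762) and Abi3bp (0.0779), and Clec4e to Matn4 (0.0984), Mcemp1 (0.0997) and F10 (0.1). The measure is smaller by construction for genes with small changes, so it is not comparable between the 10 genes.

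Genes that work with these 10 were read from 8 lists. Some tested genes had WT means under the minimum of the filter on low levels, such as Cybb (0.399 FPKM) and Csf3 (0.27 FPKM). These genes passed it through the Gm31629-/- mice, so they could be tested only if higher in those mice. The list counts and medians below include them. Each list is to be read against all tested genes, of which 18.4% were called higher and 4.64% lower. The median log2 fold change of all tested genes was 0.15. Of 22 genes for neutrophil granules and the phagocyte oxidase, 17 were tested and 12 called higher, with a median log2 fold change of 1.97. Slpi, a protease inhibitor, was at 58.1 to 378.0 FPKM in Gm31629-/- and 1.94 to 3.48 FPKM in WT mice (log2 fold change 5.32, adjusted p = 0.000902). Hp, haptoglobin, was at 36.6 to 97.6 against 2.79 to 5.86 FPKM (3.8, adjusted p = 0.00076), Lyz2, lysozyme, at 243.0 to 621.0 against 22.9 to 33.8 FPKM (3.73, adjusted p = 0.000456), and Cybb, the oxidase's membrane subunit, at 4.59 to 12.5 against 0.357 to 0.44 FPKM (2.55, adjusted p = 0.00123). Among the other granule genes, Ltf, lactoferrin, was at 10.7, 21.5 and 10.6 FPKM in Gm31629-/- and 3.87, 1.79 and 2.67 FPKM in WT mice and was called higher (log2 fold change 1.98, adjusted p = 0.00329), as was the collagenase gene Mmp8 at 6.07, 2.86 and 2.38 against 0.0223, 0.0916 and 0.0439 FPKM (2.1, adjusted p = 0.00164). Mpo was at 0, 0.665 and 0 FPKM in Gm31629-/- mice, Elane at 0.0552, 1.16 and 0 FPKM, and both were at 0 in WT mice. Ngp was at 20.1, 1.51 and 0.0445 FPKM in Gm31629-/- mice and 0 in WT mice and did not pass the test (adjusted p = 0.145), and Camp, at 2.15, 0.929 and 0.575 against 0 FPKM, was called higher (adjusted p = 0.014). Ltf, Mmp8, Mpo, Elane, Ngp and Camp were named after their values were seen.

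Of 19 neutrophil surface receptors, 18 were tested, 14 were called higher and 1 lower, with a median of 1.96. Fcgr4 was at 11.4 to 41.3 against 0.575 to 1.42 FPKM (log2 fold change 3.35, adjusted p = 0.00152), Fcgr3 at 22.6 to 58.2 against 1.96 to 2.98 FPKM (3.20, adjusted p = 0.000902), Csf2rb at 7.65 to 28.4 against 1.21 to 1.62 FPKM (2.73, adjusted p = 0.00242), and C5ar1 at 4.97 to 17.7 against 0.547 to 0.951 FPKM (2.53, adjusted p = 0.00273). These bind antibodies, granulocyte growth factors and complement. Cd177, a neutrophil surface glycoprotein, ran the other way, at 21.9, 21.3 and 38.3 FPKM in Gm31629-/- and 86.7, 66.5 and 94.6 FPKM in WT mice, without overlap (fell by 1.61 on the log2 scale, adjusted p = 0.00315). Like Ly6g it was abundant in WT mice, in which S100a8 was near 1 FPKM.

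Of 18 granulopoietic cytokines and neutrophil attractants, 14 were tested and 9 called higher, with a median of 1.96. Besides Csf3 they included C3, the central complement component, at 75.6 to 314.0 against 4.51 to 7.01 FPKM (log2 fold change 4.68, adjusted p = 0.000615), the chemokine Cxcl1 at 4.49 to 38.4 against 1.01 to 1.93 FPKM (2.95, adjusted p = 0.0137), and Il1b at 16.7 to 125.0 against 5.18 to 5.75 FPKM (2.77, adjusted p = 0.0117). All 9 were highest in Gm31629-/- mouse 2, as the receptor genes and 63.61% of all genes called higher were. Of 17 genes of TREM and C-type lectin signalling, 14 were tested and 8 called higher, with a median of 1.54, and all 14 were highest in mouse 2. Tyrobp, the adaptor of TREM1 and TREM3, was at 36.4 to 84.5 against 3.65 to 4.63 FPKM (3.26, adjusted p = 0.00059), and Fcer1g, the adaptor of CLEC4D and CLEC4E, at 38.4 to 108.0 against 6.37 to 7.85 FPKM (2.83, adjusted p = 0.00162). Clec4a1 (2.48, adjusted p = 0.00409) and Clec4a3 (2.32, adjusted p = 0.0078), lectins of the same cluster as Clec4d, were called higher too. The kinase Syk was not called (0.76, adjusted p = 0.0997).

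Of 10 receptors for calprotectin or lipocalin 2, 9 were tested and 3 called higher, Cd36 (log2 fold change 3.37, adjusted p = 0.000467), Slc22a17 (2.81, adjusted p = 0.000646) and Cd33 (1.34, adjusted p = 0.0027), with a median of 0.80. All 3 passed the filter on low levels through the Gm31629-/- mice. Their WT means were 0.167 FPKM for Cd36, 0.292 FPKM for Slc22a17 and 0.0909 FPKM for Cd33. Tlr4, the best known calprotectin receptor, was at 5.68, 7.68 and 3.34 FPKM in Gm31629-/- and 3.25, 2.08 and 1.52 FPKM in WT mice and stayed just under the fold required (0.98, adjusted p = 0.0366).

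The nearest relatives of these genes did not all share their direction. Among 12 other S100 genes, 10 were tested, S100b was called higher (1.48, adjusted p = 0.00208), S100g was called lower at 1.13, 0.226 and 7.6 against 27.5, 17.7 and 20.3 FPKM (fell by 2.99 on the log2 scale, adjusted p = 0.01), and 8 were not called, with a median of 0.31. Of the 3 other resistin-like genes, Retn (2.07, adjusted p = 0.00762) and Retnla (1.86, adjusted p = 0.00074) were called higher. Retnlb, which goblet cells secrete, was called lower at 238.0, 158.0 and 179.0 FPKM in Gm31629-/- and 845.0, 392.0 and 410.0 FPKM in WT mice (fell by 1.44, adjusted p = 0.0116). Among 7 other Ly6 genes, 6 were tested, and Ly6c1 (2.34, adjusted p = 0.00677), Ly6c2 (2.54, adjusted p = 0.000472) and Ly6i (1.85, adjusted p = 0.0107) were called higher. None of these 3 was highest in mouse 3, unlike Ly6g and 9.43% of all genes called higher.

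**Figure D3:**
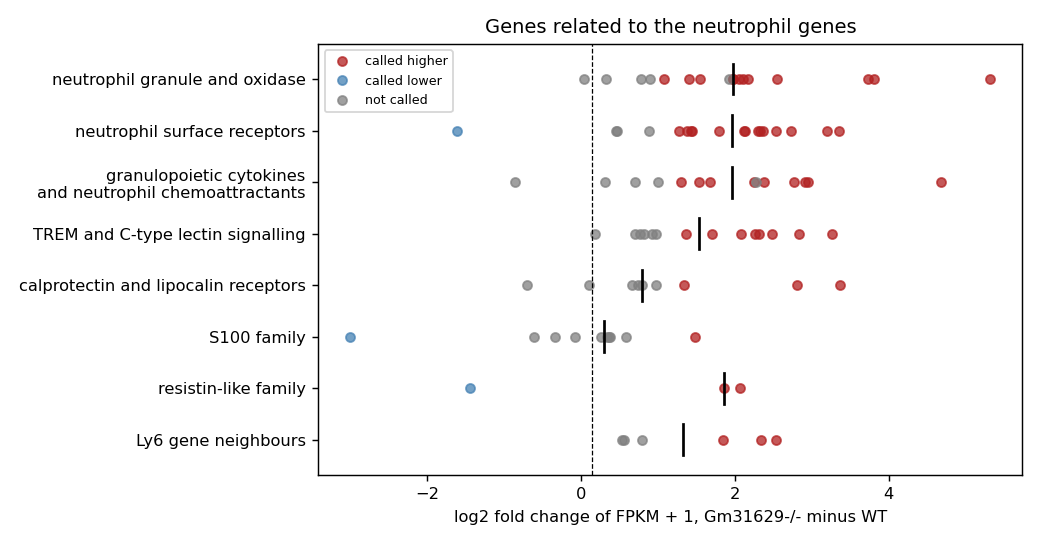
Log2 fold change of FPKM + 1 (Gm31629-/- minus WT) for every tested gene of the 8 lists, in red where called higher, blue where called lower and grey otherwise, with a short black line at the list's median. The dashed line is the median of all tested genes, 0.15, and Cd177, S100g and Retnlb are the 3 blue points.

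Bulk tissue does not separate more cells of a type from more RNA per cell. Genes of other cells moved alongside, where 18.4% of all tested genes were called higher and 4.64% lower. Some markers, such as Ptprc and Adgre1 (WT means of 0.282 and 0.435 FPKM), also passed the filter on low levels through the Gm31629-/- mice. The summed level of 5 pan-leukocyte genes was 86.1 to 155.0 FPKM in Gm31629-/- and 14.6 to 17.7 FPKM in WT mice, with all 5 called higher. That of 8 macrophage markers was 326.0 to 666.0 against 31.5 to 39.0 FPKM, with 8 of 8 called higher, and 6 of 6 fibroblast markers were called higher as well (160.0 to 475.0 against 16.3 to 33.4 FPKM). All 5 pan-leukocyte genes, 7 of 8 macrophage markers and 6 of 6 fibroblast markers were highest in Gm31629-/- mouse 2. So were Csf3r, Trem1, Trem3, Clec4d and Clec4e, and 63.61% of all genes called higher. Of 6 monocyte markers 5 were called higher, though their sum overlapped (634.0 to 1040.0 against 738.0 to 1020.0 FPKM), since most of it was Plac8, the 1 not called (597.0 to 1020.0 against 737.0 to 1020.0 FPKM). Of 3 tested eosinophil markers 1 was called higher, Prg2, at 1.1 to 1.43 against 0 to 0.258 FPKM. The eosinophil sum (4.15 to 15.3 against 1.4 to 2.54 FPKM) rested in Gm31629-/- mice 2 and 3 mainly on Il5ra, which overlapped and was not called (0.73, 12.9 and 6.67 against 0.333, 1.35 and 0.759 FPKM). Of 4 neutrophil precursor markers 1 was tested, Prtn3, at 0.722, 1.94 and 0.471 against 0.0312, 0.0321 and 0.0922 FPKM, which did not overlap and stayed just under the fold required (log2 fold change 0.89, adjusted p = 0.0295). Mpo, Elane and Ctsg were at 0 in all WT mice.

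Smooth muscle and blood markers shared their highest mouse with the calprotectin genes, Gm31629-/- mouse 1, which was highest for 26.96% of all genes called higher. Of 12 smooth muscle markers 11 were called higher (sums of 1460.0 to 2380.0 against 24.5 to 46.9 FPKM), and all 12 were highest in Gm31629-/- mouse 1, as S100a8, S100a9, Lcn2 and Retnlg were. Of 5 erythrocyte markers 3 were called higher. Their sums were 3000.0, 144.0 and 750.0 FPKM in Gm31629-/- mice and 38.0, 107.0 and 141.0 FPKM in WT mice, with all 5 again highest in mouse 1, but mouse 2 lowest and close to WT mouse 3, unlike S100a8 and S100a9. Of 12 colon epithelium markers 4 were called lower (7270.0 to 8810.0 against 12100.0 to 13100.0 FPKM). Much of the lower sum was Krt8 (1650.0 to 2330.0 against 4060.0 to 4330.0 FPKM) and Krt19 (854.0 to 1220.0 against 2000.0 to 2190.0 FPKM). The other 8 were not called, and Epcam (log2 fold change 0.005) and Cdh1 (-0.04) were nearly level. Summed squamous epithelium markers overlapped (11 to 126.0 against 38.6 to 72.9 FPKM), and of the 3 tested the 1 with an adjusted p under 0.05, Krt14, stayed under the fold required. The part of these other cells in the 10 genes' differences was not tested.

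**Figure D4:**
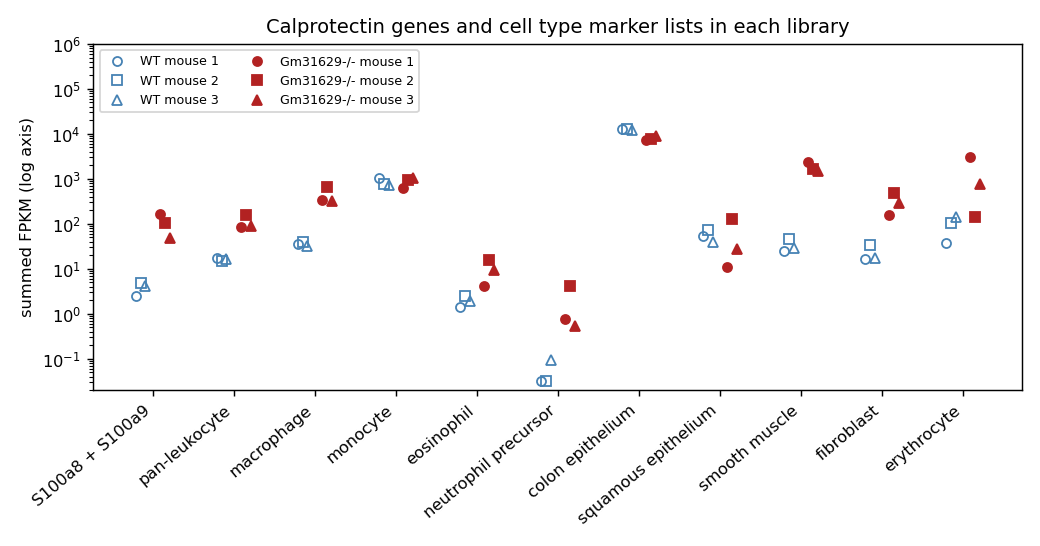
Summed FPKM of S100a8 and S100a9 and of 10 cell type marker lists in each library on a log axis, with WT mice as open blue and Gm31629-/- mice as filled red symbols (shape gives the mouse). Mouse 1 (circle) is highest among Gm31629-/- mice for the calprotectin genes, smooth muscle and erythrocytes, and mouse 2 (square) for leukocytes and macrophages.

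On a scale set by the 5 pan-leukocyte genes, which brings the mean log2 level of those genes to one value in all 6 libraries, every neutrophil gene tested had a smaller difference. Because all 5 were themselves called higher in Gm31629-/- mice, the scale lowers differences by construction. It moved the median log2 fold change of all genes from 0.15 to -2.08. Here 3 of the 9 genes tested were called higher, S100a8 (log2 fold change 1.70, adjusted p = 0.00242), S100a9 (1.47, adjusted p = 0.00746) and Retnlg (1.26, adjusted p = 0.0327), against 2.26% of 14707 genes. Clec4d was at 0.97 (adjusted p = 0.00157), under the fold required. Clec4e was at 0.41 (adjusted p = 0.0975), Lcn2 at 0.36 (adjusted p = 0.425), Csf3r at 0.25 (adjusted p = 0.427) and Trem1 at 0.04 (adjusted p = 0.848). Ly6g was at -0.33 (adjusted p = 0.531). The scale divides all genes of a library by the same factor, so genes far above the median of all genes before it stay above. Each of the 9 genes did, which is no separate result, and Trem3 fell under the filter. Over all genes 332 were called higher and 11149 lower on this scale. Of the 82 related genes tested on it, 8 were called higher and 31 lower, against 52 and 3 of 91 on the deposited scale. The 8 were 3 of 15 in the granule and oxidase list, 1 of 17 surface receptors, 2 of 12 cytokines or attractants and 2 of 8 in the calprotectin and lipocalin receptor list. In the other 4 lists limma called 0 higher, with 2 of 12 TREM and lectin signalling genes, 1 of 3 resistin-like genes, 1 of 6 Ly6 genes and 0 of 9 S100 genes higher at an unadjusted p under 0.05.

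**Figure D5:**
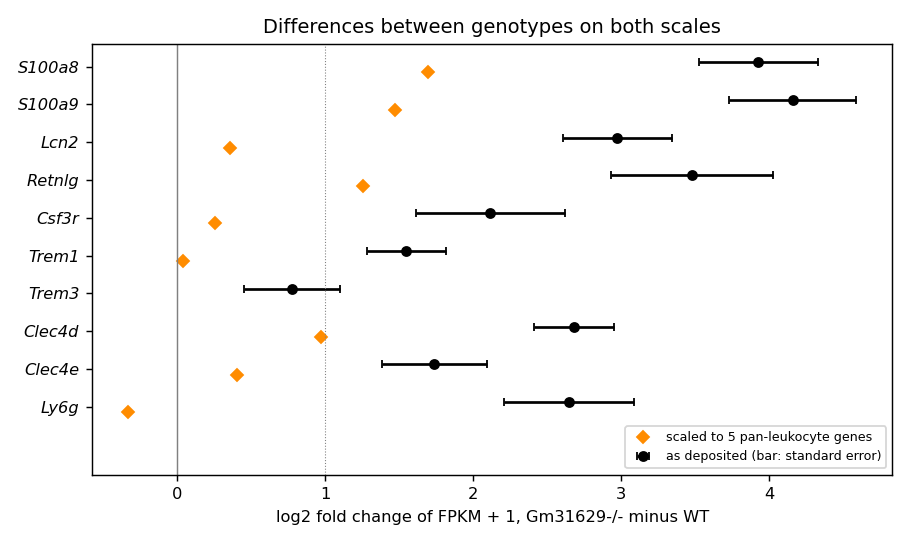
Log2 fold change of FPKM + 1 (Gm31629-/- minus WT) of each gene as deposited (black, bars give the standard error) and after scaling to the 5 pan-leukocyte genes (orange), with a dotted line at the fold required for a call. All orange points lie left of the black ones, S100a8, S100a9 and Retnlg stay to the right of the dotted line on both scales, Ly6g lies at -0.33 on the second, and Trem3 has no orange point because it was under the filter there.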

How the data were processed

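Distal colon RNA of 3 Gm31629-/- and 3 WT mice was sequenced in 6 TruSeq libraries. The deposited table gave FPKM values of 27546 genes, made by the authors, per the submitters' processing notes, with HISAT2 2.1.0, HTSeq 0.6.0 and GRCm38. The annotation and strand setting are not given in the sources used here. Symbols and exon lengths came from GENCODE M21, which matched 27488 identifiers. Groups came from the genotype label. The 10 genes and all lists were chosen with earlier results of these data known.

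Levels were compared as log2(FPKM + 1) by limma 3.58.1 (R 4.3.3), with lmFit and a trended eBayes, for the 14657 genes with a mean of at least 0.5 FPKM, with Benjamini-Hochberg adjustment over all of them. For genes of low level this scale understates the change. The p-values set each group difference against the spread between these libraries, moderated over genes, with the columns taken as separate mice. Ratios of group means are of FPKM. The whole fragments behind FPKM were recovered from gene length and depth, and 96.3% to 97.2% of values up to 20 fragments in each library were whole to within 0.1. For Retnlg they did not, and the cause was not tested. Named list genes were up to 4 per list with the largest change among called genes whose groups did not overlap, plus the 3 most alike per gene. The limma step was tested on simulated data. No 2 libraries of a group agreed within counting noise (mean chi-square of 31.2 to 163 per gene). Alternatives were another pseudocount and other filters, TPM, median-ratio and pan-leukocyte scaling, no trend, the replicate block, limma treat, unadjusted p, voom on the fragments, and leaving out each mouse. Figures were drawn with matplotlib 3.10.9.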

Additional observations from a re-analysis of the deposited data

How the results depend on the processing

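The count of neutrophil genes called higher was 9 in the main comparison. With only genes of at least 5 FPKM on average it was 5, all that were tested, and 5 had an adjusted p under 0.05. With limma treat, which tests for changes beyond 1 on the log2 scale, both counts were 5. No share over all genes was drawn up for treat, the 5 FPKM filter, the pseudocount of 0.1, no filter, no trend, the replicate block or voom. Among the fits that left out a mouse, it was drawn up only for Gm31629-/- mouse 1. Pan-leukocyte scaling moved the median log2 fold change of all genes from 0.15 to -2.08. On it 3 were called, 4 had an adjusted p under 0.05 and Ly6g was at -0.33 (adjusted p = 0.531). The count stayed at 9 of 10 with a pseudocount of 0.1, no filter, TPM scaling, no trend and voom. With median-ratio scaling it was 9 of the 9 tested. Over all genes 2704 were called higher in the main comparison (18.4%), 2745 with TPM scaling and 2232 with median-ratio scaling. Leaving out each mouse gave 8 to 10 calls for both counts, 8 without WT mouse 3 and 10 without Gm31629-/- mouse 1. Without Gm31629-/- mouse 1, 18.7% of all genes tested were called higher. Of the genes in the 8 related lists, 55 were called, 27 at 5 FPKM or more, 22 with treat, 39 (8 higher and 31 lower, against 52 and 3) with pan-leukocyte scaling and 51 to 64 when each mouse was left out. Without Gm31629-/- mouse 1, 3 S100 family genes were called higher rather than 1. In the calprotectin and lipocalin receptor list, 6 genes rather than 3 were called with a pseudocount of 0.1, by unadjusted p or with voom. Median-ratio scaling moved the median log2 fold change of all genes to -0.06 and the share of higher genes among all calls from 79.91% to 64.71%.

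With the replicate number as a block, 9 neutrophil genes and 56 list genes were called, and no call on the 10 genes changed. Same-numbered mice did not deviate together (correlations 0.0358, -0.108 and 0.0141), and those of differently numbered mice ran from -0.133 to 0.116. With 3 mice a group this cannot exclude a pairing, and the labels state none. Across the other settings 148 of the genes' fold changes kept direction and call, 10 lost the call, 2 gained it and 1, Ly6g with pan-leukocyte scaling, changed sign. Trem3 fell under the filter with median-ratio or pan-leukocyte scaling, without Gm31629-/- mouse 2 and without mouse 3. WT values of S100a8, Retnlg, Trem3, Clec4d and Clec4e rest on 20 fragments or fewer, which limits their folds. For low genes the pseudocount sets the size: with 0.1 and with voom the log2 fold changes were 3.38 and 3.93 for Clec4e, 2.76 and 3.06 for Trem1, 2.20 and 2.80 for Trem3, 4.27 and 4.63 for Clec4d and 3.12 and 3.32 for Csf3r, and S100a8 (4.95 and 5.06) exceeded S100a9 (4.53 and 4.55).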
